A study of Drosophila melanogaster with 2 samples.

Results

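The genes described here encode the proteins of the large (60S) subunit of the cytoplasmic ribosome of Drosophila melanogaster. They were taken as the protein-coding genes of the Ensembl BDGP6 annotation whose symbol starts with RpL followed by a digit or by P, which gave 54 genes of 13968 protein-coding genes on the chromosome arms. The symbol pattern also takes in 4 genes named as relatives of a ribosomal protein gene (RpL7-like, RpL22-like, RpL24-like and RpLP0-like). What was measured at them is the binding of Pita, a zinc-finger protein of the architectural, or insulator, class of chromatin proteins. Chromatin came from whole embryos, of both sexes and 0 to 24 hours old, of a transgenic strain that stably carries Pita with GFP at its C-terminus. The chromatin was sonicated to 200 to 800 bp and sequenced after immunoprecipitation. The labels' description names an anti-GFP antibody, while their antibody field names pita. The series has 1 group of 2 libraries, biological replicates 3 and 1, and no second condition. Every cell type of the embryo is mixed in these libraries, and the share of Pita that carried the tag is not stated in the labels.

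Ribosomal protein genes are among the most strongly transcribed genes of any growing cell, and the ribosome needs their products in fixed proportion. In flies, losing a copy of many of them slows growth and thins the bristles, the Minute phenotype. Many of their promoters start transcription in a run of pyrimidines, the TCT initiator, which is read by the TBP-related factor Trf2 and not by TBP. The sequence-specific factors M1BP and Dref act at sets of these promoters. Pita is known for its place at boundaries of the bithorax complex, and it also binds many sites next to transcription starts.

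The authors deposited 4 peak lists on dm6 that bear on these genes: candidates of replicate 3, of replicate 1 and of the pooled libraries, with 30000 candidates each, and a list of 1338 peaks that passed their test of reproducibility (irreproducible discovery rate, IDR). Each peak has a summit, the base of strongest enrichment, and a signal, a number the authors gave it. The signal ranks and describes peaks within a list and is not a count of reads. The candidate lists were deposited as peaks and background together, so a candidate alone is not a peak. For each gene the strongest summit within 500 bp of any of its annotated transcription start sites (TSS) was taken in each list.

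Of the 54 genes 11 (20.4%) had an IDR summit at this distance, where 5.68% of all protein-coding genes had one. These 11 were RpL30, RpL22, RpL23, RpL17, RpL13A, RpL3, RpL37A, RpL26, RpL7A, RpLP2 and RpL27A, in order of signal. The other 43 had none. The sequence under the summits is shown first. The symbol pattern that chose the 54 genes did not use it. It was learned from other peaks of the IDR list that separates the 11 genes from the 43. A difference between them was thus favoured in advance.

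A sequence of 19 bp was learned as a scoring matrix from 1081 IDR peaks, leaving out those near RpL genes, so the sites at the RpL genes had no part in it. The matrix started from the 8-mer CTCAAACC, present within 50 bp of 35 of 541 summits and in 3 of 1082 flanks. Its best defined blocks are TAGC at positions 3 to 6 and AACC at positions 16 to 19. A score above 11.2 (log2 odds) was exceeded in 0.971% of flank windows and at 54.8% of the summits it was learned on. Below is the best site that lies wholly within 100 bp of the summit for 9 of the 11 genes, with 10 bases on either side, read 5′ to 3′ in the direction of the matrix. Sequences are from the RefSeq Release 6 (dm6) genome, and capitals mark the 19 bases of the site.
RpL30, chr2L:19009347-19009385, plus strand: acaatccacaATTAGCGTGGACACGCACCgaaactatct
RpL13A, chr3R:5624351-5624389, minus strand: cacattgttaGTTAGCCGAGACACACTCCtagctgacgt
RpL3, chr3R:11221685-11221723, minus strand: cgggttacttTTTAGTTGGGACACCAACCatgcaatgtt
RpL26, chr3L:18898770-18898808, plus strand: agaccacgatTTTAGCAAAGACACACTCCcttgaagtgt
RpL22, chrX:765214-765252, minus strand: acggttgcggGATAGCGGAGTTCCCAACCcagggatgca
RpL7A, chrX:6533529-6533567, plus strand: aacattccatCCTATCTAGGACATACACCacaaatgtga
RpL37A, chr2L:5070917-5070955, plus strand: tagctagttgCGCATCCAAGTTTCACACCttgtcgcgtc
RpL17, chrX:6744391-6744429, plus strand: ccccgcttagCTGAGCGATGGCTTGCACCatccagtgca
RpL27A, chr2L:4458850-4458888, minus strand: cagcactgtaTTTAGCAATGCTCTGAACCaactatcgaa
These 9 are in order of score, from 21.3 at RpL30 to 13.2 at RpL27A. The sites of RpL30, RpL13A, RpL3 and RpL26 scored 21.3, 20.4, 20.3 and 19.5, and each matched 12 of the 14 defined bases of the matrix. The lowest match was 8 of 14 bases, at RpL37A, whose site scored 13.6 and carried neither block whole.

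RpL30, which had the strongest of these summits, carried 3 separate sites above 11.2 in a stretch of 70 bp. Their centres lay 89, 60 and 38 bp upstream of the nearest TSS, with scores of 14.9, 21.3 and 15.9, and the middle one, with the highest score, was 3 bp from the summit. All 3 read in the direction opposite to the gene, so in the gene's direction each appears as its reverse complement. The promoter of RpL22 is shown beside it, as that of the next strongest summit, with a single site in the window 103 bp upstream of the TSS that scored 18.5 and read with the gene. The promoter of RpL32, which encodes a 60S protein widely used as a reference gene in fly expression work, is shown as one with no candidate summit in any list and no site above 11.2. All 3 are on the minus strand of dm6 and are written in the direction of the gene, with the sites in capitals.
RpL30, chr2L:19009227-19009436, 130 bases before the TSS and 80 from it: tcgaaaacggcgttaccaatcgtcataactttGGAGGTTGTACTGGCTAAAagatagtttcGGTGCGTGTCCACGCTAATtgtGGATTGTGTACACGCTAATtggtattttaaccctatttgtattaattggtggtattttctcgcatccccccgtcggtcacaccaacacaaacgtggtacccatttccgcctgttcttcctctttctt
RpL22, chrX:765111-765280, 150 bases before the TSS and 20 from it: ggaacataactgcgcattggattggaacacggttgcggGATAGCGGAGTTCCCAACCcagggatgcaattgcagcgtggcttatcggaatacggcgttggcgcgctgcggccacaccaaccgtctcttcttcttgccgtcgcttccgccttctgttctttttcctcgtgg
RpL32, chr3R:30046121-30046290, 150 bases before the TSS and 20 from it: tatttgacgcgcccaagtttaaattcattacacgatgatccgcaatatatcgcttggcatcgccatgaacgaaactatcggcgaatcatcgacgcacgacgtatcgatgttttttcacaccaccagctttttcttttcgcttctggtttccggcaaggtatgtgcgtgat

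The 11 genes with an IDR summit fell into no single structural group of the subunit. RpL30, a small protein that in yeast also binds its own transcript, had a signal of 4436 in the IDR and pooled lists, 2436 in replicate 3 and 2008 in replicate 1. RpL22, which has a tissue-restricted paralog in flies, had signals of 2501 in the pooled list, 1260 in replicate 3 and 1239 in replicate 1. The RpL30 summit ranked 4 among all 1338 IDR peaks and that of RpL22 ranked 59, so RpL30 was the highest of the large-subunit genes in every list. Its peak interval was chr2L:19009102-19009659 and that of RpL22 chrX:765004-765560.

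RpL17 and RpL26 encode proteins around the exit of the tunnel through which the new chain leaves the ribosome. RpL17 had 1720 in the pooled list, 972.1 in replicate 3 and 733.6 in replicate 1. RpL26 had 1092 in the pooled list, 569.2 in replicate 3 and 527.9 in replicate 1. Of this pair RpL17 was the stronger in both libraries. RpL3, whose protein reaches into the peptidyl transferase centre, had 1610.0 in the pooled list, 863.4 in replicate 3 and 746.4 in replicate 1. RpL23, whose protein lies on the face toward the small subunit, had 1973 in the pooled list, 977.1 in replicate 3 and 991.9 in replicate 1. It was the single gene of the 11 whose value was higher in replicate 1 than in replicate 3.

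RpL13A, known in human cells for a role outside the ribosome in silencing inflammatory transcripts, had 1634 in the pooled list, 866.9 in replicate 3 and 759.5 in replicate 1. RpL37A, a small zinc-binding ribosomal protein, had 1403 in the pooled list, 780.0 in replicate 3 and 614.2 in replicate 1. Both lay in the middle of the 11, whose median pooled signal was 1610.0. RpL7A, a large-subunit protein on the outer surface of the particle, had 981.6 in the pooled list, 512.7 in replicate 3 and 433.2 in replicate 1. RpLP2, an acidic protein of the stalk that recruits translation factors, had 936.2 in the pooled list, 504.9 in replicate 3 and 438.6 in replicate 1. RpL27A had 918.3 in the pooled list, 471.5 in replicate 3 and 436.8 in replicate 1. These last genes are the weakest of the 11, and their ranks of 374, 402 and 415 were still well inside the upper part of the 1338 IDR peaks, whose median signal was 490.6.

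**Figure D1:**
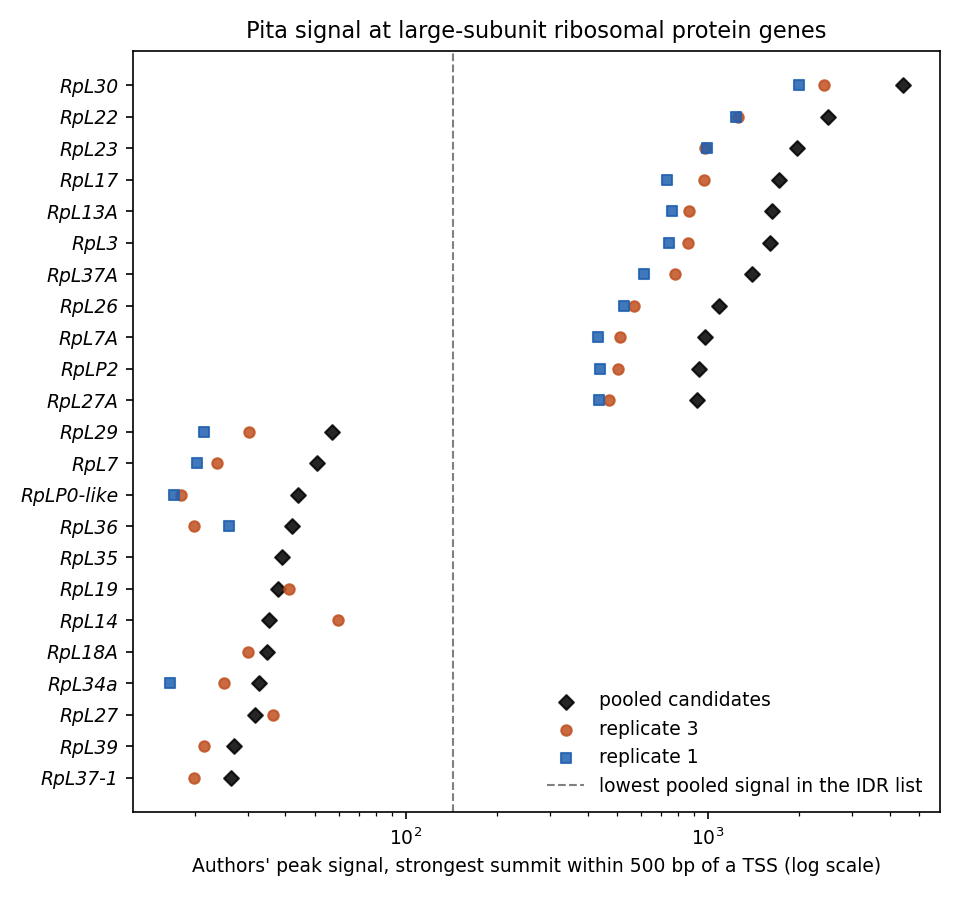
Signal of the strongest summit within 500 bp of a TSS at the 23 large-subunit genes with a pooled candidate, in the pooled list (black), replicate 3 (orange) and replicate 1 (blue), on a log axis, and the lowest pooled signal in the IDR list (dashed). The 11 genes with an IDR summit lie at 918.3 or more in the pooled list, and the 12 others at 57.05 or less.

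The replicates gave the 11 genes nearly the same order. The ratio of replicate 3 to replicate 1 ran between 0.985 at RpL23 and 1.33 at RpL17, with a median of 1.15, and it was above 1 at 10 of the 11. Across these genes Pearson's r of the log2 signals was 0.983 and Spearman's rho 0.945. Genes are not independent replicates, so these are descriptions. The 11 were also picked by a list of peaks that passed a test of reproducibility, which favours like values and summits in advance. The summits of both replicates lay between 0 and 22 bp apart, with a median of 12 bp. Replicate 3 thus gave slightly higher numbers, which cannot be read as more binding because each list has its own scale.

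The pooled signals of the 11 genes and of the other large-subunit genes with a candidate were far apart. That the 11 lay above the others was set in advance, as the IDR summits are the 1338 strongest pooled candidates. Only the width of the gap was open. The weakest IDR summit of an RpL gene, at RpL27A, had 16.1 times the signal of the strongest pooled candidate at an RpL gene without one, 57.05 at RpL29. No large-subunit gene lay between these values. Over the whole lists there was no such space: the last IDR summit had 143.9 and the next pooled candidate 143.7. Among all other protein-coding genes with an IDR summit the median signal was 841.5, and 360 of these 783 (46.0%) were at or above the weakest RpL value.

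Counting candidates of any strength, 23 of the 54 genes (42.6%) had a pooled candidate near a TSS, against 27.4% of all protein-coding genes. In replicate 3 alone 29 genes (53.7%) had one, against 29.8% of all genes, and in replicate 1 alone 17 genes (31.5%), against 29.0% of all genes. The share of large-subunit genes was furthest above that of all genes in the replicate 3 list, and near it in that of replicate 1. Each of these counts includes the 11 genes with an IDR summit. Among the 43 others, 18 had a candidate in replicate 3 and 6 in replicate 1. No matching share over all genes without an IDR summit was computed, so the counts at the 43 genes are no result about them. Of the 23 large-subunit genes with a pooled candidate, 11 had an IDR summit. Of all 13968 protein-coding genes, 3823 had a pooled candidate and 794 had an IDR summit. Of the 43 genes without an IDR summit, 12 had a pooled candidate, 7 had a candidate in replicate 3 alone, RpL36A had one in replicate 1 alone, and 23 had none in any list.

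The pooled candidates of those 12 genes had signals between 26.35 and 57.05, with a median of 36.5, at ranks between 3224 and 29872 of 30000. RpL29 had 57.05 in the pooled list, 30.2 in replicate 3 and 21.4 in replicate 1. RpL7 had 50.95 in the pooled list, 23.7 in replicate 3 and 20.4 in replicate 1. RpLP0-like had 44.1, 18.0 and 17.1 in the same lists. All 3 were low in both libraries, although each was listed in both. RpL36, the product of a well studied Minute locus, had 42.2 in the pooled list, 19.8 in replicate 3 and 26.0 in replicate 1. RpL35, a protein at the tunnel exit, had 39.1 in the pooled list and no candidate near a TSS in either replicate. Where both replicates listed a candidate at one of the 43 genes, which happened at 5, the summits lay 32 to 698 bp apart, wider than the 0 to 22 bp at the 11. The 11 were picked by the IDR list, so this contrast was partly set by that choice. Of the 12 pooled candidates 7 were upstream of the TSS and 5 downstream.

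Pairs of related genes give a comparison within the family. Of the 7 pairs in which the annotation holds a gene and a close relative, 1 had an IDR summit at either gene. Of single genes, 20.4% of the family and 5.68% of all protein-coding genes had one, so this count is no result about paralogs. RpL22 had the signal of 2501, while RpL22-like, its paralog with a role in the male germline, had no candidate in any list. RpL7 had the candidate of 50.95 and RpL7-like had none. The yeast relative of RpL7-like is an assembly factor, as is that of RpL24-like. RpL10Aa and RpL10Ab had no candidate in any list, and neither did RpL24 and RpL24-like. RpL34a had a pooled candidate of 32.75 and RpL34b a candidate of 26.7 in replicate 3 alone. RpL37-1 had a pooled candidate of 26.35 and RpL37-2 a candidate of 15.9 in replicate 3 alone. RpLP0 had no candidate in any list, and RpLP0-like had the candidate of 44.1. Peak calls rest on reads that can be placed, and no label or header says how reads from near-identical copies were placed.

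The stalk is a single structure of the ribosome. It is built from RpLP0, RpLP1 and RpLP2, which the cell makes in fixed proportion. Of these RpLP2 alone had an IDR summit, where 20.4% of the family and 5.68% of all protein-coding genes had one. So few genes give no result about the stalk. The RpLP2 signal was 936.2, and RpLP0 and RpLP1 had no candidate in any of the lists. RpL5 and RpL11, which join the particle together with 5S RNA, had none in the IDR or pooled list, and RpL11 had a candidate of 19.05 in replicate 3 alone.

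The strongest IDR summit of each of the 11 genes lay upstream of the nearest TSS. The distances were 63 bp at RpL30, 101 bp at RpL22, 100 bp at RpL23, 112 bp at RpL17, 126 bp at RpL13A and 192 bp at RpL3. They were 18 bp at RpL37A, 40 bp at RpL26, 119 bp at RpL7A, 269 bp at RpLP2 and 479 bp at RpL27A. The median was 112 bp, and 9 of the 11 lay 18 to 192 bp upstream. Among the other 783 genes with an IDR summit, 94.9% of summits were upstream, with a median of 117 bp. The position at large-subunit genes was therefore close to that at other genes. RpL27A was the farthest, and at this gene neither a window of 200 bp nor the peak interval reached a TSS.

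**Figure D2:**
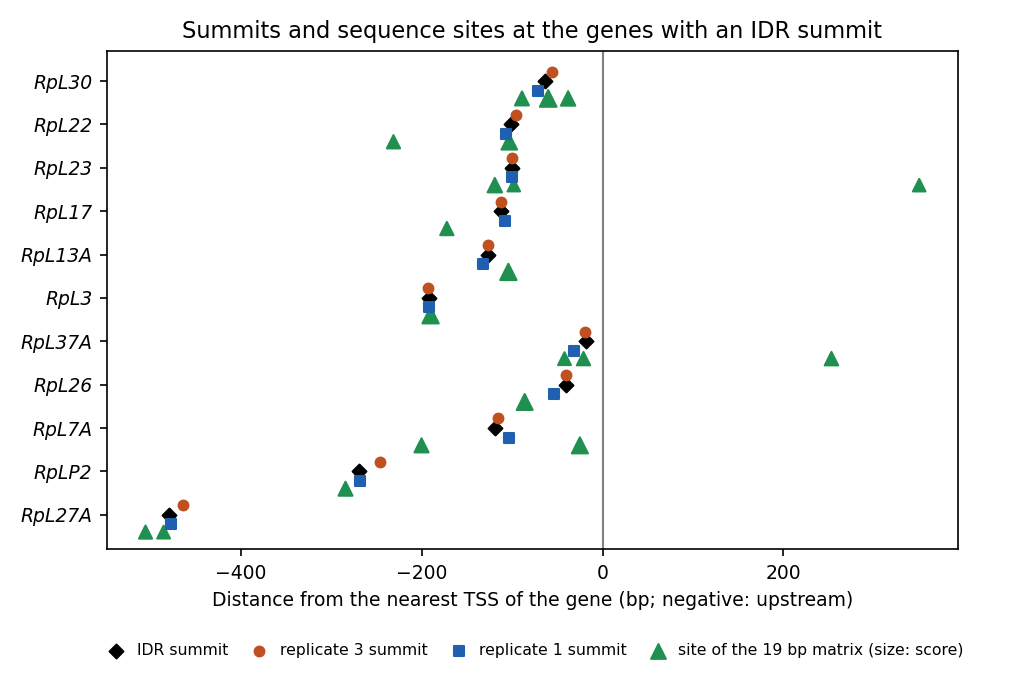
Position of the IDR summit (black), the summits of replicate 3 (orange) and replicate 1 (blue) and every site of the 19 bp matrix above 11.2 (green triangles, larger with a higher score) at the 11 genes, in bp from the nearest TSS, with upstream to the left. All 11 IDR summits lie upstream, between 18 and 479 bp.

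By arm, 3 of 6 members on X had an IDR summit, against 7.56% of all protein-coding genes on X. It was 3 of 13 members on 2L (5.42% of all genes there), 2 of 14 on 2R (4.91%), 1 of 10 on 3L (5.73%) and 2 of 11 on 3R (5.41%). Chromosomes 4 and Y hold no member. These counts are small and no test was made between arms. The summits of RpL23 and RpLP2 were at chr2R:22854283 and chr2R:16585860, within peaks at chr2R:22854035-22854520 and chr2R:16585687-16586187. At 3 of the 11 genes the summit was also within 500 bp of the TSS of another protein-coding gene. The RpL23 summit was 456 bp upstream of CG13531, the RpL3 summit 63 bp upstream of CG6693, and the RpL13A summit 223 bp upstream of both Dph4 and Spec2. At RpL3 the neighbour's TSS is closer to the summit than that of RpL3 itself, and the summit cannot be given to one gene of such a pair. An oppositely directed protein-coding TSS within 1000 bp upstream was present at 5 of the 11 genes with an IDR summit (45.5%) and at 29 of the 43 without (67.4%). It was present at 47.1% of other genes with an IDR summit, 35.4% of other genes without one and 36.2% of all protein-coding genes. The difference between the 11 and the 43 was not tested.

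At the 43 genes without an IDR summit the nearest one lay at a median distance of 70270 bp, against 37804 bp at other protein-coding genes without one. The closest was 1542 bp away, at RpL29. Within 5000 bp of a TSS 5 of the 43 genes had an IDR summit (11.6%), against 9.47% of the other genes without one, and within 2000 bp 2 did (4.65%), against 3.26%. The shares with a summit at these distances were thus near those of other genes. At 4 of the 11 genes a further, weaker IDR summit lay near the main one: 558.8 at RpLP2, 387.2 at RpL7A, 505.4 at RpL22 and 590.4 at RpL26. These lay 207, 200, 203 and 203 bp from the main summit, all to the right on the plus strand whichever way the gene pointed. Each such gene was counted once, by its main summit. The further summit was closer to the TSS at RpLP2, 62 bp away, and inside the gene at RpL26. How often other IDR promoter summits had such a neighbour was not counted, so the spacing and side are no result about these genes. Over the whole list, summits within 300 bp of a stronger one were dropped for the matrix, as were those near RpL genes. This left 1081 of the 1338 peaks.

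The 19 bp sequence was present at every one of the 11 summits within 100 bp, taking the score of 6.33 that 5% of flank windows exceed, against 500 of 610 other promoter summits (82.0%). Within 50 bp it was present at 9 of 11 (81.8%), against 432 of 610 (70.8%). Among the 270 other promoter summits at least as strong as the weakest RpL summit, 239 (88.5%) held it within 50 bp. The matrix was learned from peaks that include other promoter summits, while the RpL peaks were left out. These shares were thus not taken on equal terms, and they cannot show whether RpL summits differ from others of like strength. RpL26 and RpL7A were the exceptions within 50 bp. The RpL26 site, centred 46 bp from the summit, reached past the edge of the window. At RpL7A sites with scores of 15.2 and 19.7 lay 81 and 94 bp from the summit, on opposite sides of it, and the second, which scored higher, reached past 100 bp and is not the one printed.

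At the other genes the centre of the best site lay at most 60 bp from the summit. It was 3 bp away at RpL30, 2 bp at RpL22 and RpL3, 3 bp at RpL37A, 15 bp at RpLP2, 19 bp at RpL23, 22 bp at RpL13A, 26 bp at RpL27A and 60 bp at RpL17. RpL23 and RpLP2, whose sites are not printed, scored 15.9 and 15.0. The block TAGC was whole in 7 of the 11 sites, AACC in 4 and both in RpL22, RpLP2 and RpL27A. The higher scoring site of RpL7A, not counted here, also held TAGC. In 6 genes the site read against the direction of the gene and in 5 with it, so the sequence had no fixed orientation to transcription. In all, 20 separate sites above 11.2 were found near these summits and starts, and 6 genes had more than 1.

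A second matrix, begun from the 8-mer AGATGGCG and resembling the sequence of the insulator protein CTCF, was found in the same peaks. At the score of 8.37 that 5% of flank windows exceed, it was present at 20.7% of the summits it was learned on. The first matrix was present at 63.4% of them at its like score of 6.33. The 5% holds for windows of 50 bp on either side and not for those of 100 bp. None of the 11 RpL summits held the second matrix within 50 bp or within 100 bp. At other promoter summits 70 of 610 (11.5%) held it within 50 bp and 106 (17.4%) within 100 bp. With 11 summits a share of this size would give few sites, so this is a description of these genes only.

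With the matrix begun from CTCAAACC, the 19 bp sequence divided the family much as the IDR list did. The matrix was learned from other peaks of that list, so a higher share at genes with a summit was favoured in advance. A site above 11.2 lay within 500 bp of a TSS at 11 of the 11 genes with an IDR summit and at 2 of the 43 without (4.65%). Over other protein-coding genes it was 609 of 783 with an IDR summit (77.8%) and 1294 of 13131 without (9.85%). The best score near a TSS had a median of 18.5 (12.6 to 21.3) in the 11 genes and 6.35 (3.0 to 14.2) in the 43. Over other protein-coding genes without an IDR summit the median was 7.02, and over all protein-coding genes 7.20. The median of the 43 was thus slightly under both, and the difference was not tested.

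The 2 genes that broke the pattern were RpL41 and RpL5. RpL41, which encodes a very short basic ribosomal protein, had a site of score 14.2 at 106 bp upstream of its TSS and no candidate in any list. RpL5 had a site of 12.3 at 455 bp upstream and likewise no candidate. Read the other way, 11 of the 13 RpL genes with a site (84.6%) had an IDR summit, and 609 of 1903 other genes with a site did (32.0%). Most other genes with a site thus had no IDR summit. At the looser score of 6.33 the sequence divided the family less clearly, with 11 of 11 genes that had a summit and 23 of 43 that had none, against 62.1% of all genes.

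**Figure D3:**
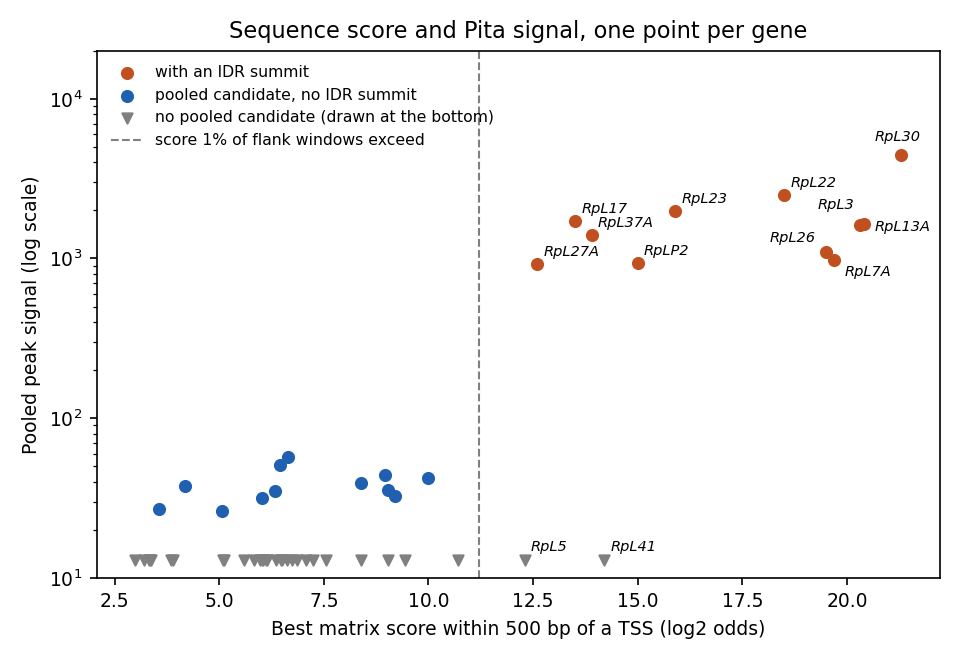
Best score of the 19 bp matrix within 500 bp of a TSS (x axis, log2 odds) and pooled peak signal (y axis, log scale) for each of the 54 genes, with genes without a pooled candidate drawn at the bottom and the score of 11.2 dashed. The 11 genes with an IDR summit (orange) score 12.6 to 21.3, and RpL5 and RpL41 are the genes to the right of the line without a summit.

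Core promoter motifs, known sequences at which transcription machinery is placed, were searched from 250 bp before to 50 bp after the start of each gene's canonical transcript. The TCT initiator was counted as CTTT on the gene's strand with its C within 5 bp of the TSS. It was present in 4 of 11 genes with an IDR summit (36.4%), RpL30, RpL3, RpL7A and RpL13A, and in 21 of 43 without (48.8%). Of all protein-coding genes 5.72% had it, and of other genes with an IDR summit 6.13%. The initiator was thus common across the large-subunit genes, in 25 of 54, whether or not a Pita summit was near. A match of 4 letters is not a mapped start, and an annotated TSS a few bases off would hide a true one.

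Motif 1, the sequence of M1BP, was searched as GGTCACAC on both strands. It was present in 3 of 11 genes with an IDR summit (27.3%), RpL27A, RpL30 and RpL37A, and in 6 of 43 without (14.0%). Of other genes with an IDR summit 18.1% had it, and 7.52% of all genes did. The DRE, the palindrome TATCGATA that Dref binds, was present in 1 of 11 genes with an IDR summit, RpL26, and in 14 of 43 without (32.6%). Of other genes with an IDR summit 12.6% had it, and 8.94% of all genes. The share in the 11 genes was near that of all genes. At 11 genes these shares rest on few promoters, and no test was made of them. In the RpL30 promoter printed above, Motif 1 and the initiator both lie downstream of the 3 sites of the 19 bp sequence. They also lie downstream of the TSS used there, as the initiator was counted at the canonical start, another annotated start of RpL30.

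**Figure D4:**
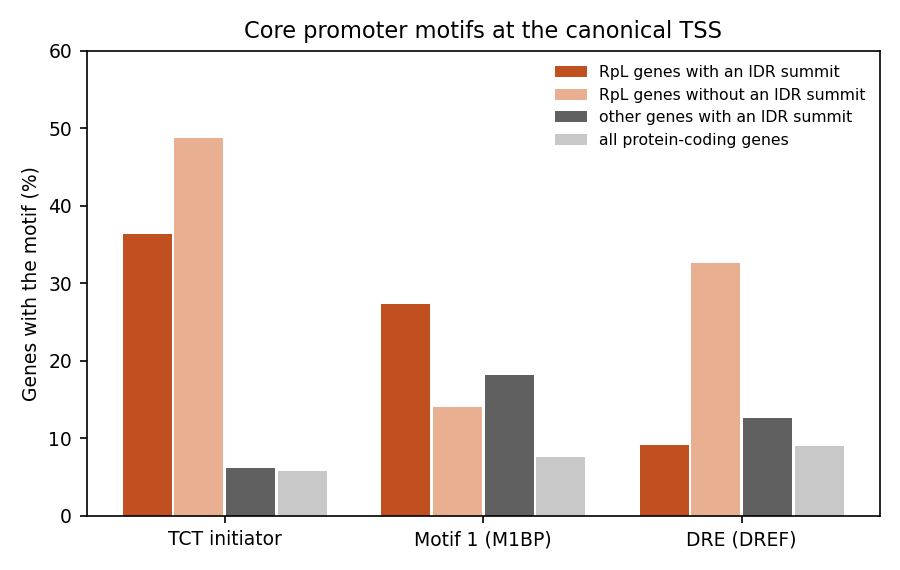
Percentage of genes with the TCT initiator, Motif 1 or the DRE, for the 11 large-subunit genes with an IDR summit, the 43 without, other protein-coding genes with an IDR summit and all protein-coding genes. The TCT initiator is in 36.4% and 48.8% of the large-subunit groups and 5.72% of all genes, and the DRE in 9.09% of the 11 and 32.6% of the 43.

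Other genes of the ribosome give a measure of how far this extends. Of the genes for cytoplasmic small-subunit proteins 10 of 38 (26.3%) had an IDR summit, with a median signal of 938.8 and a lowest of 219.4. Their summits lay further out, at a median of 295 bp upstream of the TSS, against 112 bp at the large-subunit genes. Of the genes for large-subunit proteins of the mitochondrial ribosome 4 of 47 (8.51%) had one, led by mRpL13 at 2798. The mitochondrial share was thus near the 5.68% of all genes, and both cytoplasmic shares were above it. No test was made of the difference between these lists.

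**Figure D5:**
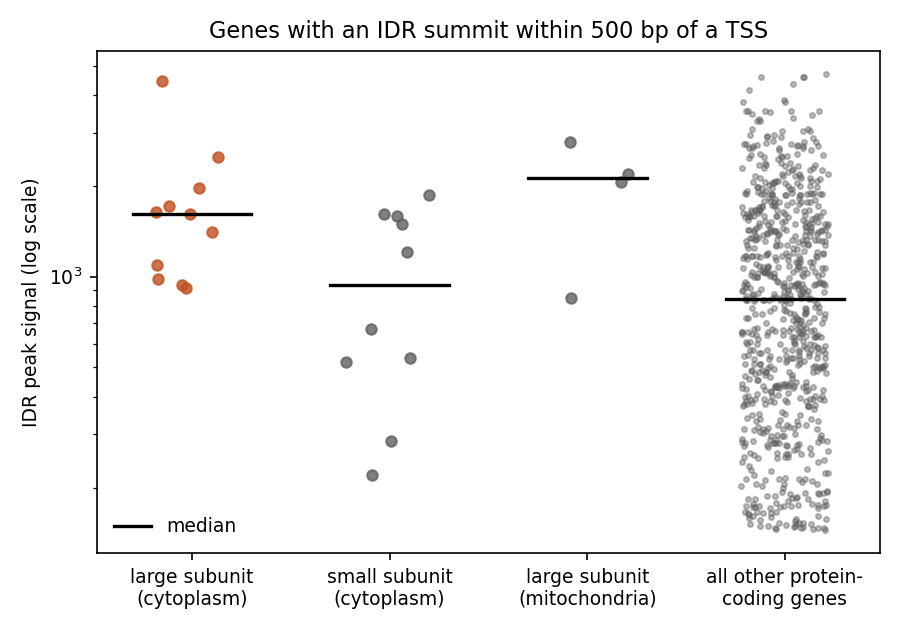
IDR signal (log scale) at each gene that had an IDR summit near its TSS (500 bp or less), for cytoplasmic large-subunit genes, cytoplasmic small-subunit genes, mitochondrial large-subunit genes and all other protein-coding genes, the last including the middle groups, with bars at the medians. The large-subunit genes start at 918.3, and the small-subunit genes reach down to 219.4.

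Genes for factors that assemble the large subunit had no IDR summit at any of the 9 found (eIF6, Nmd3, ppan, Non3, Ns1, Ns2, Ns3, Nnp-1 and Surf6), where 5.68% of all genes had one, and 4 of these had a pooled candidate, where 27.4% of all genes did. A count of 0 among 9 genes is near that share and is no result about these factors. Among 5 regulators of ribosomal protein genes (M1BP, Trf2, Dref, Myc and Xrp1), 1 had an IDR summit, where 5.68% of all genes had one. It was Trf2, with a signal of 406.2 at 258 bp upstream of a TSS. This signal was under the median of the IDR list, 490.6. So few genes give no result about these regulators.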

How the data were processed

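ChIP-seq was done on 2 libraries of 1 group (biological replicates 3 and 1). The authors deposited, per the file headers and notes, candidate lists per replicate and for the pooled libraries, called against a control alignment, and an IDR-thresholded list. Their signal per peak is the deposited value and was used unchanged. No label or header names the aligner, the peak caller or the threshold of the IDR step. Read depth is unknown, so no counting interval is given, and nothing says how separately the replicates were raised.

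Only the dm6 lists were used, with genes from Ensembl release 115 and sequence from RefSeq for that assembly. The 19 bp matrix was learned in 8 rounds from windows of 50 bp around IDR summits, with flanks 250 bp away, after summits within 300 bp of a stronger one were dropped. Its starting 8-mer came from the stronger peaks, a choice made after the 8-mer over all peaks gave AGATGGCG. The scripts were tested on simulated data. Named are the 11 genes with an IDR summit, the 5 strongest others, paralog pairs, stalk genes, genes sharing a summit and the leader of each list, of which 1 is not reported here; the other genes named were added after their values were seen. Members and lists were chosen with earlier results of these data known, and no significance test was run. Alternatives were other TSS windows, canonical TSS, peak intervals, each replicate alone, other thresholds and other matrices. Software was Python 3.11.15 with pandas 2.3.3, NumPy 2.4.6, SciPy 1.17.1 and matplotlib 3.10.9.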

Additional observations from a re-analysis of the deposited data

How the results depend on the processing

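The count of 11 genes with an IDR summit stayed at 10 or 11, and the 10 shared every gene with the 11: RpL27A was lost with a window of 200 bp and when the peak interval had to cover a TSS. The 1338 strongest candidates of each replicate, as many as the IDR list holds, gave the same 11 genes. The IDR list rests on these same libraries, and the 11 ranked 431 or better in replicate 3 and 390 or better in replicate 1. Their return was thus set in advance, and only whether further genes came in was open. These replicate lists had no IDR step, and in replicate 3 the next large-subunit gene was RpL14, at rank 1599. The share of all protein-coding genes ranged from 3.94% to 6.76%. With 1 replicate left out, the median signal was 733.6 to 863.4 against 1610.0, since each list has its own scale, and the median distance was 107 to 112 bp. The canonical TSS alone gave 132 bp. A window of 1000 bp gave 38 genes with a pooled candidate instead of 23. With CTCAAACC kept as the start, a matrix from 482 peaks with no TSS within 500 bp gave the sequence at 9 summits, the same count.

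The settings that follow were chosen after seeing the data. Genes without an IDR summit but with a site numbered 23 at the score 5% of flanks exceed and 5 within 1000 bp, against 2. When both the matrix and its starting 8-mer came from those 482 peaks, the 8-mer was AGATGGCG. The count of summits with the sequence was then 0 instead of 9, the genes with a summit and a site 1 instead of 11, and those without a summit but with a site 13 instead of 2. With CTCAAACC kept, genes with a site numbered 11 with a summit and 3 without. The statements on the 19 bp sequence therefore hold for the matrix begun from CTCAAACC. No paired analysis was possible because the libraries form 1 group. Depth is unknown, and a gene without a candidate is one without a listed peak, not one shown to lack Pita.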

Other observations

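At RpL19, RpL14 and RpL27 the signal in the pooled list was a lower number than that in replicate 3. Each list has its own scale, so this cannot be read as less binding. RpL14 had 35.3 in the pooled list and 59.6 in replicate 3, RpL19 had 37.7 and 41.0, and RpL27 had 31.7 and 36.5, and none of them had a candidate near a TSS in replicate 1. These were 3 of the large-subunit genes without an IDR summit, whose replicate 3 signals ran from 15.9 to 59.6 and whose replicate 1 signals ran from 16.6 to 26.0.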
